A study of Mus musculus with 16 samples.

Results

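Ribosomal protein genes encode the protein parts of the ribosome, and their mRNAs are among the most abundant in dividing and growing cells. The group described here was taken by symbol: every gene whose name starts with Rpl or Rps followed by a number, or with Rplp, without pseudogene symbols containing -ps and without the Rps6k kinases. The rule gave 82 of 14498 genes, 49 with Rpl symbols and 33 with Rps symbols. It left out 5 symbols with -ps and 10 Rps6k symbols. Among the 82, Rpl7l1, a factor of large subunit assembly, and Rps19bp1, which binds Rps19, are not themselves proteins of the cytosolic ribosome, and 2 others, Rpl37rt and Rps4l, are annotated as transcribed processed pseudogenes. Rpl26 was not analysed here. Genes such as Rpsa, Fau and Gnb2l1, whose products also sit in or on the ribosome, carry other names and were kept as a separate list.

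The cells came from the forebrain of wild-type CD1 mouse embryos at embryonic day 15.5, with cerebral cortex named as the tissue studied, and were profiled with the Illumina and Bio-Rad SureCell droplet workflow, which counts unique molecular identifiers (UMIs), each marking 1 captured mRNA molecule. There were 16 deposited samples, all of 1 strain, 1 genotype and 1 stage, whose labels do not say whether they are separate animals, and 1 pooled matrix of 5777 cells that does not say which cell came from which sample. No treatment was compared. Comparisons here are between cell classes inside the pooled matrix, so the data act as 1 sample, no test was made, and the 95% intervals given cover counting error only.

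The ribosome has a small subunit, which reads the mRNA, and a large subunit, which forms peptide bonds. The stalk of the large subunit, made of Rplp0 with Rplp1 and Rplp2, recruits elongation factors. Messages of ribosomal proteins commonly begin with a C followed by a run of pyrimidines, the terminal oligopyrimidine tract, through which mTOR signalling controls their translation. In the developing cortex, radial glia divide at the ventricle, intermediate progenitors derived from them divide further out, and excitatory neurons migrate to the cortical plate. Interneurons and striatal neurons come from dividing cells of the ganglionic eminences.

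Promoter windows are shown for 7 members, chosen after their values were seen, because they show members with and without a tract among those described further on. Rps6, Rplp2, Rps18, Rpl15 and Rpl38 start with such a tract, and Rps27l and Rpl22l1, which differed most between classes, start with G at the listed start. Each window runs 5′ to 3′ from 40 bases before the RefSeq start to 20 bases from it, and capitals mark the tract, counted from the start base.
Rps6: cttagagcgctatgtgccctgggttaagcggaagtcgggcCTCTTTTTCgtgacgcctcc
Rplp2: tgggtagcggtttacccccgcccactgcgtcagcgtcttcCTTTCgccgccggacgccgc
Rps18: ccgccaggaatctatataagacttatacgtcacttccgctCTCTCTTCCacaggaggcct
Rpl15: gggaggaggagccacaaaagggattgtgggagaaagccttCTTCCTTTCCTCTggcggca
Rpl38: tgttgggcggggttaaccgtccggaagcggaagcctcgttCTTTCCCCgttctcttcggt
Rps27l: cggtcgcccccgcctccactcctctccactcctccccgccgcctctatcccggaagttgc
Rpl22l1: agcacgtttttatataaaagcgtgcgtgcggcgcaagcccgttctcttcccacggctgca
The windows lie, in RefSeq's GRCm38.p6, at chr4:86857348-86857407 on the minus strand for Rps6, chr7:141447611-141447670 on the plus strand for Rplp2, chr17:33955646-33955705 on the minus strand for Rps18, chr14:18270967-18271026 on the minus strand for Rpl15, chr11:114668540-114668599 on the plus strand for Rpl38, chr9:66946046-66946105 on the plus strand for Rps27l and chr3:28805468-28805527 on the plus strand for Rpl22l1. Rps27l has 2 listed starts, and the first along the chromosome is shown. The tract in Rpl15 is 13 bases long, and those in Rps6 and Rps18 are 9.

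RefSeq promoters, 250 bases before to 50 after each start, matched 61 of the 82 members by symbol. A start with C followed by at least 4 further pyrimidines was found in 13 of these 61 genes (21.3%) and in 2.96% of the 10848 other genes of the matrix with a promoter. Any start with C was found at 31.9% of the members' 72 listed starts and at 14.6% of those of the other genes. The letters CGGAAG, on either strand and anywhere in the 300 bases, were in 41 of the 61 members (67.2%) and in 32.5% of the other genes. The letters TATAAA, on either strand, were in 7 members (11.5%) and in 8.89% of the other genes. These are matches of letters near listed starts, which can lie away from the start used in these cells. The 12 measured members with a tract had a median log2 ratio of -0.40 between excitatory neuron-like and radial glia-like cells, and the 47 measured members without one had -0.36.

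The matrix held 21598246 UMIs in the 5773 cells used, 4 of the 5777 having been set apart because over 10% of their UMIs came from globin genes, with 1111 to 17398 UMIs per cell and a median of 3258. Ribosomal protein genes gave 1401691 of these UMIs, 6.49%. The share in single cells ran from 0.959% to 23.7%, with a median of 6.15% and quartiles of 5.18% and 7.58%. Cells fell into 2 runs by their order in the matrix, 3647 cells (run 1) and then 2122 (run 2), told apart by Y-linked genes and by 11 genes listed outside the alphabetical order, with 4 cells between them. What the runs are is not labelled, and they are used here as a check of each value. They are not like-for-like repeats, because the mix of cells inside a class differed between them. The upper layer neuron-like cluster, part of the excitatory neuron-like class, had 232 of its 255 cells in run 2. The share was 6.47% in run 1 and 6.53% in run 2.

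Classes were drawn with no ribosomal protein gene and no listed translation, cell cycle or sex gene among the clustering features. Cells were scaled to their UMIs outside the ribosomal protein genes. Cell cycle genes outside those lists were not removed. Spc25 and Ccna2, which were not listed, were among the leading genes of an unnamed cluster of 75 cells. Of 21 clusters, 18 carried a name from marker genes, and 481 cells in the other 3 stayed unnamed. The larger radial glia-like cluster was led by Gas1, Aldoc and Hes1, with a mean marker log2 fold of 2.42. The other, 160 cells with a median of 6694.5 UMIs, was led by Sox3, Rgcc and Lipg. It had 14 of 16 markers raised but a mean log2 fold of only 0.72, so its name is weaker. Intermediate progenitor-like cells had all 10 of their markers raised, and Cajal-Retzius cell-like cells all 9.

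Intermediate progenitor-like and radial glia-like cells devoted the largest part of their UMIs to ribosomal protein genes among the neural classes, and Cajal-Retzius cell-like and basal forebrain neuron-like cells the smallest. In 483 intermediate progenitor-like cells the share was 8.61% (95% exact binomial interval 8.56% to 8.65%), with 8.57% in run 1 and 8.64% in run 2. In 917 radial glia-like cells it was 7.88% (7.86% to 7.91%), with 7.96% and 7.75% in the runs. The 2 progenitor classes of the cortex thus kept the same order in both runs.

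Ganglionic eminence progenitor-like cells, 459 in number, had 6.89%, with 6.94% in run 1 and 6.24% in the 32 cells of run 2. Migrating excitatory neuron-like cells, 913 in number, had 6.39%, with 6.38% and 6.40% in the runs. Excitatory neuron-like cells, 1228 cells of the deep and upper layer clusters, had 5.85%, with 5.59% and 6.09%. The progenitors of the ganglionic eminence were thus below both cortical progenitor classes in each run.

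Striatal neuron-like cells had 6.20% over 263 cells, with 6.23% in run 1 and 5.65% in the 18 cells of run 2. Interneuron-like cells had 5.46% over 742 cells, with 5.55% and 5.25%. Basal forebrain neuron-like cells had 4.73% over 146 cells, all of run 1. The range of the runs in striatal neuron-like cells overlapped that in excitatory neuron-like cells, so these neighbours are not separated.

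Cajal-Retzius cell-like cells, early-born neurons of the cortical surface that secrete reelin, had 4.36% over 69 cells, with 4.29% and 4.60%. Among the small classes outside the neural lineage, 29 meningeal fibroblast-like cells had 8.68% and 17 microglia-like cells had 8.52%, and their intervals overlapped that of the intermediate progenitor-like cells. The 26 choroid plexus-like cells had 5.47%, with 5.11% and 6.79% in the runs. High shares were therefore not limited to the neural progenitor classes. Nor did they follow division messages: 54 genes of G2 and mitosis gave 0.314% of UMIs in intermediate progenitor-like cells. They gave 1.07% in radial glia-like, 1.60% in ganglionic eminence progenitor-like and 0.327% in interneuron-like cells.

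**Figure D1:**
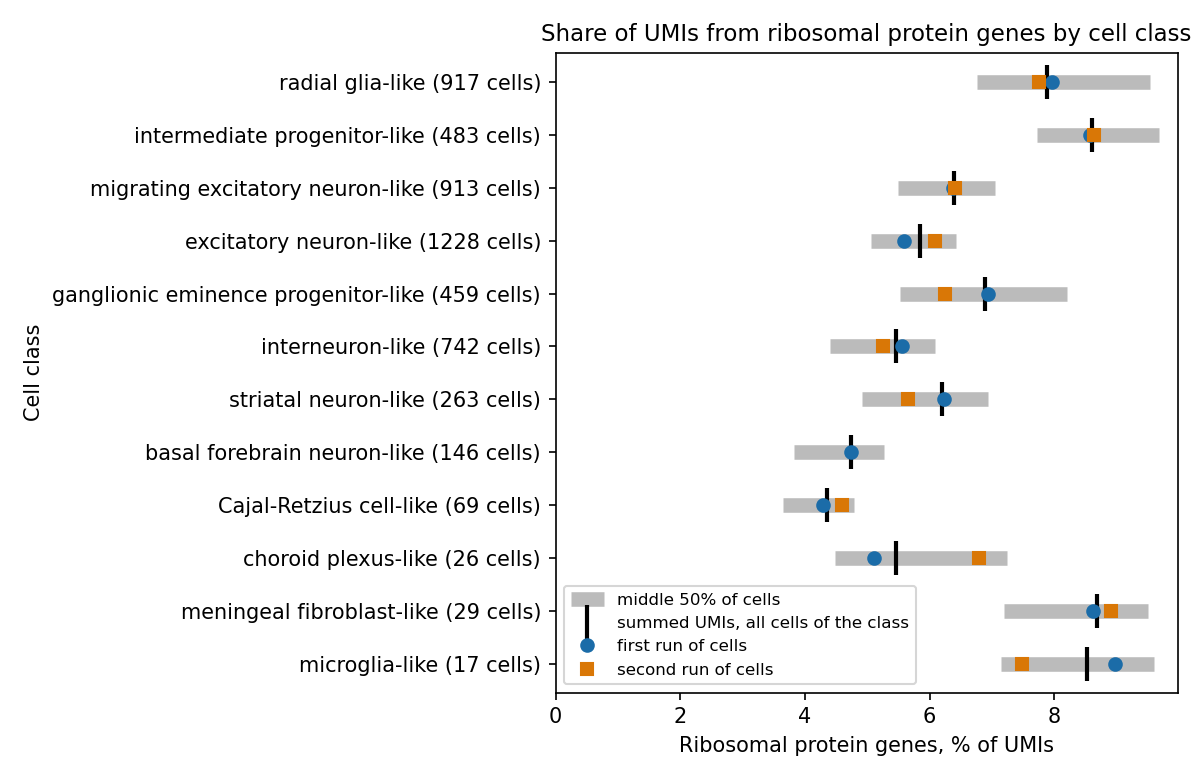
Percent of UMIs from ribosomal protein genes (x axis) in each cell class (y axis, with its number of cells): black marks are summed UMIs over all cells, circles and squares runs 1 and 2 of cells, grey bars the middle 50% of single cells. Intermediate progenitor-like cells sit at 8.61%, excitatory neuron-like cells at 5.85% and Cajal-Retzius cell-like cells at 4.36%.

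The first question was whether ribosomal protein genes differed between the neurons of the cortex and the radial glia they descend from. The share was lower in excitatory neuron-like than in radial glia-like cells, with a ratio of 0.742 (95% interval 0.738 to 0.745), 0.703 in run 1 and 0.785 in run 2. Radial glia-like cells held a mean of 339 ribosomal protein UMIs and 3963 other UMIs per cell, and excitatory neuron-like cells 260 and 4191. Fewer ribosomal protein UMIs, at a similar total, thus accompanied the lower share.

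The difference was spread over nearly the whole group. Of 79 members with at least 50 UMIs over both classes, 73 had a ratio below 1, and the median log2 ratio was -0.39, against -0.13 over all 10506 genes measured. The members' ratios were close together, with an SD of 0.29 on the log2 scale against 1.41 over all genes. At a limit of 1.5-fold, 17 of the 79 members were lower and 0 higher, beside 28.8% of all genes lower and 20.9% higher, so the count of members past the limit, 21.5% lower, did not exceed the background. The count of 17 became 28 without the cells of highest doublet score and 36 with equal weight per cell or with a finer clustering. Of 78 members measured in both runs, 71 were below 1 in both and 2 above 1 in both.

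Members of the small subunit and the large subunit differed little as groups. Leaving out Rpl7l1 and Rps19bp1, small subunit genes made up 46.4% of ribosomal protein UMIs in radial glia-like cells, 46.8% in intermediate progenitor-like, 45.7% in excitatory neuron-like and 47.3% in interneuron-like cells. Over all 12 named classes the share lay between 45.6% and 47.4%.

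The largest difference was in Rps27l, a homolog of Rps27 that is known as a target of p53. Levels are given as CPM, the UMIs of a gene per 1000000 UMIs of the class. Rps27l measured 346 CPM in radial glia-like and 113 in excitatory neuron-like cells, a ratio of 0.327 (0.297 to 0.360). The runs gave 345 against 129 CPM and 348 against 97.7 CPM. In the annotation (GENCODE vM21, mm10) the gene starts at position 66946086 of chromosome 9, on the plus strand.

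Rps27l did not follow the sum across classes. It measured 302 CPM in intermediate progenitor-like, 198 in migrating excitatory neuron-like, 384 in ganglionic eminence progenitor-like and 141 in interneuron-like cells. Striatal neuron-like cells had 126 CPM and basal forebrain neuron-like cells 140. In Cajal-Retzius cell-like cells, the class with the lowest share, Rps27l was at 289 CPM, above the other 5 neuron classes.

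Rpl22l1, the paralog of the RNA-binding large subunit protein Rpl22, came next. It measured 296 CPM in radial glia-like and 143 in excitatory neuron-like cells, a ratio of 0.482 (0.439 to 0.528), with 0.502 and 0.459 in the runs. Rpl22 itself measured 716 and 558 CPM, a ratio of 0.778. The pair therefore shifted in composition: Rpl22l1 made up 29.2% (27.8% to 30.7%) of the pair's UMIs in radial glia-like, 27.7% in intermediate progenitor-like, 23.3% in migrating excitatory neuron-like and 20.4% (19.1% to 21.7%) in excitatory neuron-like cells.

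The same composition was read in the ventral classes. Rpl22l1 made up 29.9% (27.5% to 32.4%) of the pair in ganglionic eminence progenitor-like, 19.6% (17.3% to 22.1%) in interneuron-like and 20.4% in striatal neuron-like cells. In run 2 the ganglionic eminence value was 17.8%, from 32 cells, so the difference from interneuron-like cells there, at 21.1%, had the opposite sign. In Cajal-Retzius cell-like cells the part of Rpl22l1 was 31.4% (24.7% to 38.6%), close to that of the progenitors.

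The 3 stalk genes were also among the lowest, all past the limit. Rplp1 measured 2872 CPM in radial glia-like and 1499 in excitatory neuron-like cells, a ratio of 0.522 (0.507 to 0.537), with 0.521 and 0.556 in the runs. Rplp0 had a ratio of 0.570 and Rplp2 of 0.593. Stalk genes as a group, chosen after these values were seen, made up 7.86% (7.77% to 7.96%) of ribosomal protein UMIs in radial glia-like, 6.68% in intermediate progenitor-like, 5.87% in migrating excitatory neuron-like and 5.87% in excitatory neuron-like cells.

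The stalk share was higher in run 1 than in run 2 in each of these classes, and in each run radial glia-like cells were above intermediate progenitor-like cells, and these above both excitatory neuron classes. It was 8.26% against 6.25% in run 1, and 7.12% against 5.54% in run 2, for radial glia-like against excitatory neuron-like cells. Ganglionic eminence progenitor-like cells had 7.38% and interneuron-like cells 6.16%. Meningeal fibroblast-like cells, at 8.57%, and microglia-like cells, at 8.15%, had the highest stalk shares, so the level in radial glia-like cells was not particular to progenitors.

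**Figure D2:**
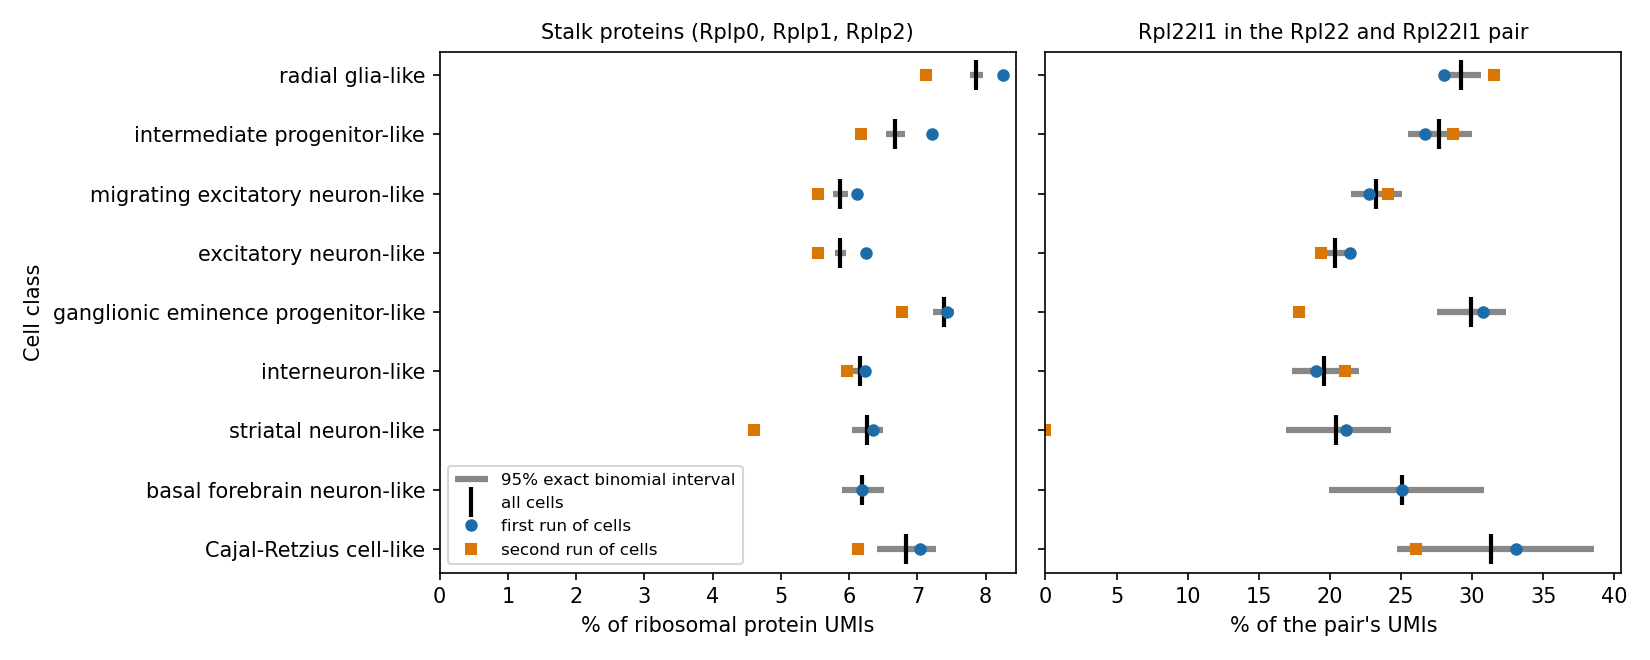
Percent of ribosomal protein UMIs from the stalk genes (left) and percent of Rpl22 and Rpl22l1 UMIs from Rpl22l1 (right) in 9 cell classes, with exact binomial intervals and both runs of cells. Stalk genes take 7.86% in radial glia-like and 5.87% in excitatory neuron-like cells, and Rpl22l1 takes 29.2% and 20.4%. Run 2 holds 18 striatal neuron-like cells and 32 ganglionic eminence progenitor-like cells.

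The other members past the limit were Rpl7l1 (ratio 0.496), Rps4l (0.564), Rpl14 (0.591), Rps12 (0.592), Rps2 (0.603), Rpl8 (0.614), Rpl35a (0.628), Rpl18 (0.647), Rps19 (0.653), Rps24 (0.658), Rps20 (0.658) and Rps18 (0.666). Rps26, at 0.669, lay just outside the limit. Rps4l was below 1 in run 1, at 0.606, and above 1 in run 2, at 1.84, from 3 and 11 UMIs. Rps12, a small subunit protein among the 10 most counted members, measured 2438 CPM in radial glia-like and 1442 in excitatory neuron-like cells.

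At the other end, 6 members had a ratio above 1 over all cells. Rpl15, a core protein of the large subunit, measured 364 CPM in radial glia-like and 422 in excitatory neuron-like cells, a ratio of 1.16 (1.09 to 1.24), with 1.09 and 1.19 in the runs. Rpl38, whose loss in mice affects the translation of Hox messages, had a ratio of 1.09, with 1.003 and 1.06. Those were the 2 members above 1 in both runs.

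Rps7, of the small subunit, had 1.08 over all cells but 0.953 in run 1 and 1.249 in run 2. Rpl10, an X-linked gene of the large subunit, had 1.01, with 0.993 and 1.07. Rps19bp1 had 1.09 (0.910 to 1.31) and Rpl29 had 1.11 (0.876 to 1.40), both with intervals that held 1. Inside the runs Rpl29 was below 1, at 0.964 and 0.9895. None of these 4 was above 1 in both runs.

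**Figure D3:**
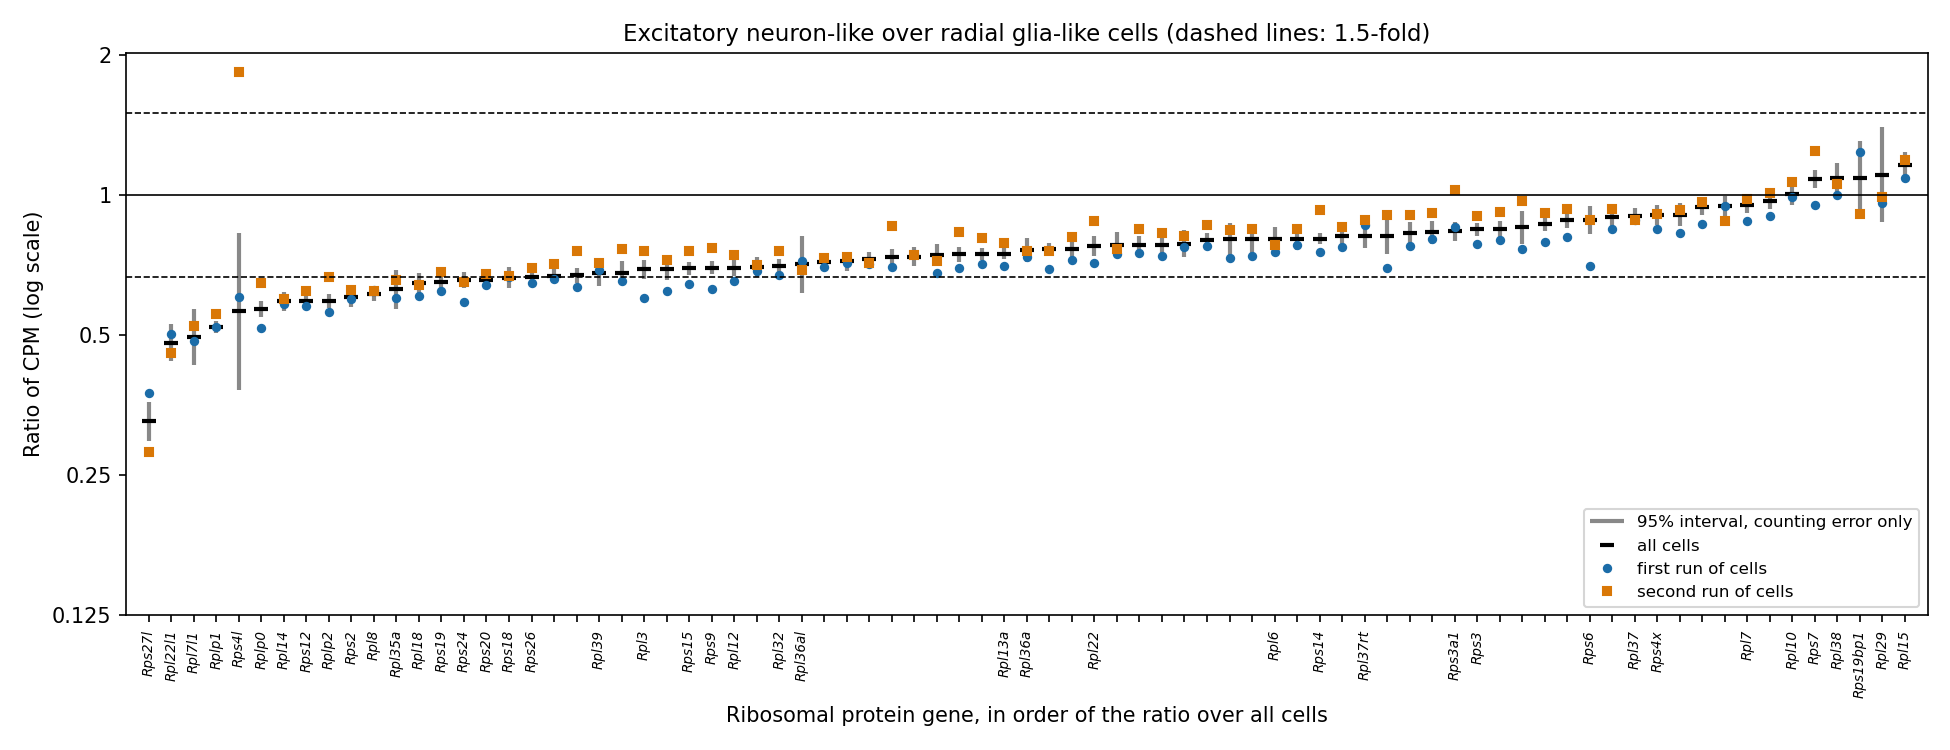
Ratio of CPM in excitatory neuron-like over radial glia-like cells (y axis, log scale) for 79 ribosomal protein genes in order of the ratio (x axis), with the 95% counting interval and both runs of cells. Names are printed for genes given in the text. Rps27l is lowest at 0.327, Rpl15 highest at 1.16, and 73 genes lie below 1.

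The 10 members with the most UMIs held 27.9% of all ribosomal protein UMIs. They included Rps14 (2107 CPM over all cells), Rpl13a (1988), Rplp1 (1904), Rps12 (1766), Rps3 (1760), Rpl32 (1750), Rps26 (1699), Rps9 (1623) and Rps15 (1527). CPM here is not divided by transcript length, so this is an order of UMI counts. All 10 were lower in excitatory neuron-like than in radial glia-like cells, from a ratio of 0.845 for Rps3, which lines the mRNA entry channel, to 0.522 for Rplp1.

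The second question was whether the share differed between the cortical progenitor classes. Intermediate progenitor-like cells had the higher share, at 1.09 times that of radial glia-like cells (1.08 to 1.10), and 1.08 and 1.11 times in the runs. Per cell, however, intermediate progenitor-like cells held 278 ribosomal protein UMIs against 339, beside 2949 other UMIs against 3963. The direction was not stable: with 4 globin-rich cells kept in the clustering, an alternative added after the data were seen, the ratio was 0.965, and with a finer clustering it was 1.01. Among the shallowest cells of each class the order was also reversed. There intermediate progenitor-like cells (median 1950 UMIs) had 8.94% and radial glia-like cells (median 1960.5 UMIs) 9.71%.

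Among the 79 members, 61 were higher and 18 lower in intermediate progenitor-like cells. At 1.5-fold, 1 member was lower, the pseudogene Rps4l, and 0 were higher, beside 19.0% of 9693 genes lower, 11.2% higher and 30.2% in either direction. That call was lost in run 2, where Rps4l had a ratio of 3.501 from 3 and 6 UMIs, and with the globin-rich cells kept, where it had 1.08. The median log2 ratio of the members was 0.14, against -0.04 over all genes. Rps6, the target of the S6 kinases, had the highest ratio among members with at least 200 UMIs, 1.38 (1.27 to 1.51), from 356 to 493 CPM, but its level also differed between the runs and its ratio was lower inside each, 1.17 and 1.34.

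Rpl7 and Rpl6, of the large subunit, followed with 1.29 each. Rpl7l1 had the lowest ratio among members with at least 200 UMIs, 0.707 (0.583 to 0.852), from 130 to 91.7 CPM, then Rps27l with 0.873 and Rplp1 with 0.905. In run 1 Rpl7, at 1.21, and Rpl6, at 1.20, were above Rps6, and in run 2 they had 1.30 and 1.24. Rps27l was at 0.985 in run 1 and 0.766 in run 2.

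Against intermediate progenitor-like cells, the excitatory neuron-like cells had a share ratio of 0.679 (0.675 to 0.684), 0.653 in run 1 and 0.704 in run 2. Of 79 members, 76 were below 1, and 76 of 78 were below 1 in both runs. At 1.5-fold, 32 members were lower and 0 higher, beside 23.8% of 9738 genes lower, 21.0% higher and 44.8% in either direction, and the 32 became 18 with the globin-rich cells kept. The median was -0.54, against -0.11 over all genes.

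Rps27l was again lowest, with a ratio of 0.375 (0.332 to 0.423), then Rpl22l1 with 0.514 (0.457 to 0.580) and Rps24, of the small subunit, with 0.519 (0.495 to 0.544). Rps24 measured 1739 CPM in intermediate progenitor-like and 902 in excitatory neuron-like cells. Rpl15 had 1.08, Rps19bp1 1.01 and Rps7 0.905. These comparisons share their classes with the previous ones, so their values are not independent of them.

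The last question was whether the difference appeared in the ventral lineage. The share was lower in interneuron-like than in ganglionic eminence progenitor-like cells, with a ratio of 0.792 (0.786 to 0.799), 0.80006 in run 1 and 0.841 in run 2, where the progenitors numbered 32. Interneuron-like cells held 136 ribosomal protein UMIs and 2360 other UMIs per cell, and the progenitors 245 and 3313. Of 79 members 71 were below 1, and the median was -0.31, against -0.05 over all genes. Of 76 members measured in both runs, 62 were below 1 in both, 2 above 1 in both and 12 on different sides. The log2 ratios of the members had a Pearson correlation of 0.409 between the runs, against 0.889 for excitatory neuron-like over radial glia-like cells.

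At 1.5-fold, 12 members were lower and 3 higher, beside 24.2% of 8625 genes lower, 20.2% higher and 44.4% in either direction, and the 12 became 4 with a coarser clustering and 6 among cells of 3000 to 5000 UMIs. Those 12 were Rps27l, Rpl22l1, Rpl7l1, Rpl12, Rps2, Rplp1, Rpl39, Rpl8, Rps20, Rpl14, Rpl36al and Rpl3. Rps27l measured 384 and 141 CPM, a ratio of 0.368 (0.317 to 0.426), Rpl22l1 had 0.450 (0.380 to 0.531) and Rpl7l1 0.522 (0.411 to 0.660). The 3 higher were Rpl29, Rps19bp1 and Rps4l, each from fewer than 200 UMIs over both classes.

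The cortical comparison used other cells. Across 79 members, the log2 ratios of the 2 lineages had a Pearson correlation of 0.730 and a Spearman correlation of 0.732. Both comparisons use the same genes of 1 pooled matrix, so the correlations are given as a description. Median depth was 4377 UMIs in excitatory neuron-like and 3749 in radial glia-like cells. It was 2286 in interneuron-like and 3251 in ganglionic eminence progenitor-like cells. Of the 17 and the 12 members past the limit, 8 were past it in both, 47.1% and 66.7% of the lists, where 21.5% of all 79 members were past it in the cortical comparison. Rpl15, at 1.16, and Rps7, at 1.07, were again among the highest, with Rpl7 at 1.04.

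Across 9 classes of at least 50 cells, 59 of the 79 members with at least 100 UMIs were highest in intermediate progenitor-like cells and 15 in radial glia-like cells. The lowest class was Cajal-Retzius cell-like for 52 members and basal forebrain neuron-like for 20. The members with the widest range of log2(CPM + 10) over the classes included Rps27l (1.68), Rpl35a (1.53), Rpl29 (1.42) and Rps24 (1.42). Rpl35a, of the large subunit, ran from 271 CPM in intermediate progenitor-like to 87.7 in Cajal-Retzius cell-like cells.

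**Figure D4:**
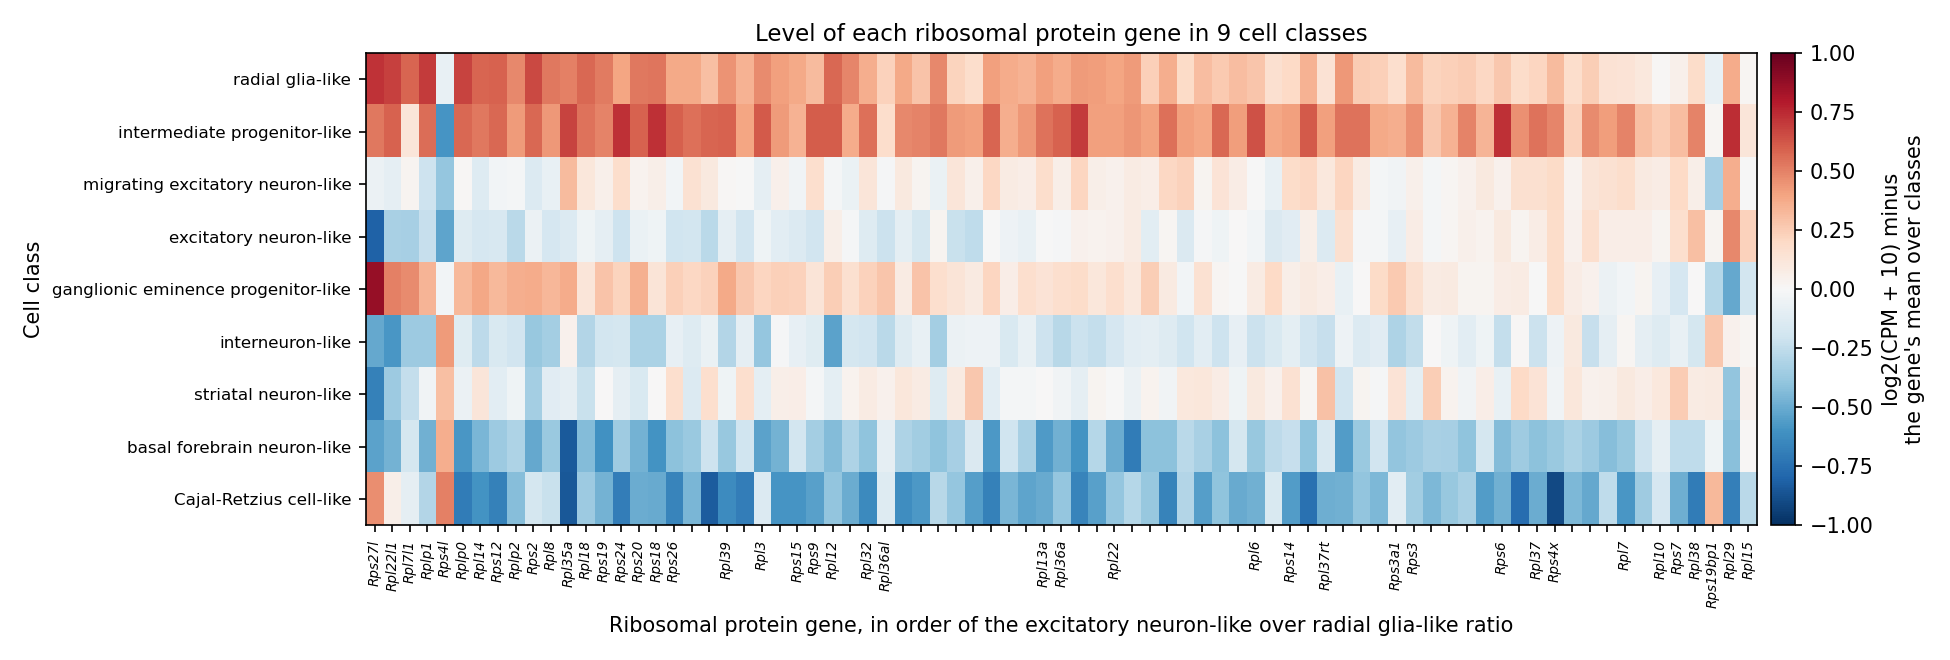
Level of 79 ribosomal protein genes (x axis) in 9 cell classes (y axis), as log2(CPM + 10) minus the gene's mean over the classes (colour), with names for genes given in the text. Most columns are highest in intermediate progenitor-like and lowest in Cajal-Retzius cell-like cells. Rps27l is highest in ganglionic eminence progenitor-like cells (384 CPM), then in radial glia-like and intermediate progenitor-like cells, with Cajal-Retzius cell-like cells next (289 CPM).

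Other pairs of like-named members were read in the same way. Rpl7l1 made up 11.96% of the Rpl7 and Rpl7l1 UMIs in radial glia-like, 6.92% in intermediate progenitor-like and 6.59% in excitatory neuron-like cells, and 12.4% and 6.63% in ganglionic eminence progenitor-like and interneuron-like cells. It was higher in radial glia-like than in excitatory neuron-like cells in both runs, with 12.9% against 7.60% in run 1 and 10.4% against 5.83% in run 2. Rpl36al made up 14.9% of its pair with Rpl36a in radial glia-like and 14.005% in excitatory neuron-like cells, with overlapping intervals. Rps27 had 39 UMIs in all cells, and no shift is read from its pair with Rps27l.

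The pseudogene members differed between the runs. Rpl37rt made up 33.5% of its pair with Rpl37 in run 1 and 22.5% in run 2 in radial glia-like cells, and 33.0% and 22.4% in excitatory neuron-like cells. Rps4l made up 3.58% and 0.279% of its pair with Rps4x in the runs of radial glia-like cells, 2.58% and 0.563% in excitatory neuron-like, 1.26% and 0.900% in intermediate progenitor-like and 8.70% and 10.3% in Cajal-Retzius cell-like cells, the last from 9 UMIs of Rps4l. Both are near copies of their partners, and how reads were split between copies is not given in the sources used here.

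Over all cells, 5 members differed by 1.5-fold or more between the runs. Rpl29 measured 17.4 CPM in run 1 and 46.3 in run 2, Rps6 248 and 432, Rps3a1 843 and 516, Rpl37rt 473 and 310, and Rps4l 22.0 and 6.43. The level of these members is thus less certain than the counting interval shows. Rps27, Rpl34 and Rpl30 had 39, 36 and 6 UMIs in all, far under the other members, and no value is read from them.

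The depth of the cells moved with the share in some classes. Each class was cut by UMIs per cell into 3 groups of equal cell number. In radial glia-like cells the groups from shallow to deep, with medians of 1960.5, 3754.5 and 6594 UMIs, had shares of 9.71%, 8.10% and 7.26%. Excitatory neuron-like cells had 5.37%, 5.9997% and 5.92%. Intermediate progenitor-like cells had 8.94%, 8.54% and 8.51%, and striatal neuron-like cells went the other way, with 5.33%, 5.94% and 6.74%. The shallow group of intermediate progenitor-like cells, with a median of 1950 UMIs, was thus below that of radial glia-like cells. The middle and deep groups of intermediate progenitor-like cells were above those of radial glia-like cells.

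The difference between neurons and radial glia was present at like depth. Among cells of 3000 to 5000 UMIs, 296 radial glia-like cells had 8.01%, 197 intermediate progenitor-like cells 8.57% and 502 excitatory neuron-like cells 5.99%. In the same window ganglionic eminence progenitor-like cells had 6.85% and interneuron-like cells 5.55%. Clusters inside a class also differed: the shallow deep layer neuron-like cluster, 115 cells with a median of 1530 UMIs, had 3.36%, against 5.90%, 5.95% and 6.01% in the other deep and upper layer clusters, and radial glia-like clusters had 8.20% and 7.09%. The part of depth in these differences was not tested.

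**Figure D5:**
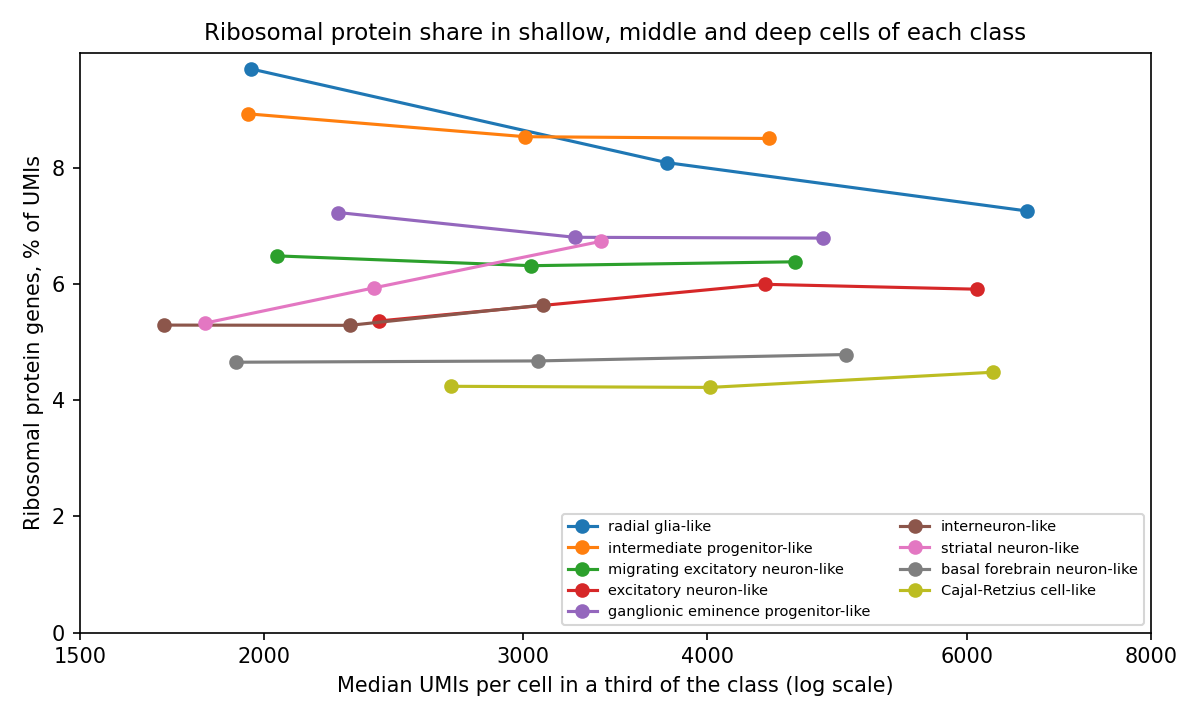
Percent of UMIs from ribosomal protein genes (y axis) against the median UMIs per cell (x axis, log scale) in the shallow, middle and deep group of cells of each of 9 classes. Radial glia-like cells go from 9.71% to 7.26%, and excitatory neuron-like cells lie between 5.37% and 5.9997%.

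Cells with signs of division were compared inside the radial glia-like class. After thinning each cell to 1000 UMIs, 846 cells with 2 or more UMIs of 54 genes of G2 and mitosis had a share of 8.35%, and 18 cells with none had 9.37%, a ratio of 0.892 (0.850 to 0.936), with 0.860 and 0.946 in the runs. That list holds genes that neurons express too, so it takes nearly every cell. With the 36 list genes under 10 CPM in excitatory neuron-like cells, an alternative chosen after the data were seen, 533 cells had 8.06% and 249 cells with none had 9.02%, a ratio of 0.894, with median depths of 4006 and 3478 UMIs. The share was lower in cells with division messages in both splits, that with 54 genes resting on 18 cells without them. From the shallow to the deep group of this class the share went from 9.71% to 7.26%. The part of depth in the split with 36 genes was not tested. An unnamed cluster of 75 cycling cells closest to intermediate progenitors had 6.87%.

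Other genes of protein synthesis, from lists made for this comparison, were set beside the members. Of the ribosome biogenesis genes, 27 of 58 measured were lower in excitatory neuron-like than in radial glia-like cells at 1.5-fold and 2 were higher, beside 28.8% of all genes lower and 20.9% higher, with a median log2 ratio of -0.56. Dkc1, which pseudouridylates ribosomal RNA, went from 104 to 31.3 CPM, and Ltv1, of small subunit assembly, from 55.8 to 17.4. Polr1d, a subunit shared by RNA polymerases I and III, went from 116 to 217.

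Mitochondrial ribosomal proteins had 27 of 75 lower and 0 higher, with a median of -0.45. Initiation factors had 10 of 41 lower and 1 higher, with a median of -0.29, and elongation factors 3 of 11 lower and 1 higher, with -0.13, so the counts of lower genes in both lists did not exceed the 28.8% of all genes. The elongation factor that was higher, Eef1a2, the form known from neurons and muscle, went from 5.83 to 41.9 CPM, while Eef1d went from 228 to 67.9. The 4 measured ribosomal proteins outside the symbol rule were all below 1, from Rpsa at 0.566 to Fau at 0.832.

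The Myc family and mTOR pathway had 1 of 26 lower and 6 higher, beside 28.8% and 20.9% of all genes, with a median of 0.04. The median was 0.11 in run 1 and -0.14 in run 2, so no direction is read for this list. Myc, an activator of ribosome production in other settings, measured 11.2 CPM in radial glia-like and 50.5 in excitatory neuron-like cells. Mxd3, a Myc antagonist known from dividing cells, went from 85.9 to 8.05.

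In the ventral comparison, ribosome biogenesis genes had 22 of 56 lower and 0 higher, with a median of -0.47, and mitochondrial ribosomal proteins 19 of 73 lower, with -0.32, beside 24.2% of all genes lower and 20.2% higher. The count of mitochondrial ribosomal proteins was near that background. Gar1, which acts with Dkc1, went from 125 CPM in ganglionic eminence progenitor-like to 49.7 in interneuron-like cells. Mycn, of the Myc family, went from 167 to 72.9, while in the cortex it measured 241 CPM in radial glia-like, 135 in intermediate progenitor-like and 268 in excitatory neuron-like cells. Against radial glia-like and ganglionic eminence progenitor-like cells the biogenesis list had a lower median than the ribosomal proteins, but in excitatory neuron-like over intermediate progenitor-like cells its median was -0.31, above the -0.54 of the ribosomal proteins.

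Among 7378 genes outside the group with at least 500 UMIs, the 5 whose log2(CPM + 10) over the 9 classes was most like log2 of the ribosomal protein share were Gnb2l1 (Pearson 0.992), Pcbp2 (0.971), Baz1a (0.960), Cnot3 (0.956) and Fam162a (0.955). Gnb2l1, now called Rack1, encodes a protein bound to the small subunit, and it ran from 1959 CPM in intermediate progenitor-like to 1023 in Cajal-Retzius cell-like cells. Pcbp2 encodes an RNA-binding protein of poly(C) stretches. The correlations rest on 9 classes of 1 pooled matrix and were picked as the highest of many.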

How the data were processed

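The authors deposited 1 matrix of UMI counts, 14498 genes by 5777 cells with numbered names, so cells could not be assigned to the 16 samples, and shared barcodes could not be counted. The genome build was mm10 (per the submitters' processing notes). Which aligner, counter, annotation and cell filter were used is not given in the sources used here. Whole-number counts were used as deposited. No mitochondrial gene was in the matrix.

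Every cell had at least 500 UMIs. Cells were scaled to 10000 UMIs outside the ribosomal protein genes, and 2000 variable genes, 30 principal components, 15 neighbours and Leiden clustering at resolution 1 gave the clusters (leidenalg 0.10.2, scikit-learn 1.9.0, Python 3.11.15). The 4 globin-rich cells were set apart after the matrix had been read. A cluster took a name where the markers' mean log2 fold was at least 0.5 and at least 3 markers were 1.5-fold up. A marker of that class also had to be among its 20 leading genes. No other class could lead among the first 10 or hold the first gene, and a depth condition applied. The 3 unnamed clusters met the first conditions but not all the others. Their best lists were excitatory neuron (228 cells, share 5.47%), migrating excitatory neuron (178 cells, 5.05%) and intermediate progenitor (75 cells, 6.87%). They entered no class in the values reported. Rebuilt names may differ from the study's. No doublets were removed in the values reported.

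Counts were summed per class and divided by all UMIs of the class, as a percent or as CPM. Ratios carry exact 95% intervals from the binomial distribution, which cover counting error only. A gene was measured in a comparison with at least 50 UMIs over both classes, and was counted as lower or higher past 1.5-fold. The ratios and their intervals were tested on simulated class sums with known changes, drawn with counting error only. Clustering, naming and thinning were not simulated. No p-value was computed, because the matrix is 1 sample. Named members were the ends of the ratios among members with at least 200 UMIs, those past the limit, the most counted and the widest in range, and for each other gene list the ends of its ratios. The members, lists and rules were chosen with earlier results of these data known. Classes with fewer than 50 cells entered no comparison of ratios. Promoters came from RefSeq (GRCm38.p6), gene positions and types from GENCODE vM21. Alternatives covered clustering, doublets, depth, weighting, denominator, members, runs and thresholds. Values of a few genes are not reported here.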

Additional observations from a re-analysis of the deposited data

How the results depend on the processing

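In all, 25 alternatives were run, 6 of them added after the data were seen. The share in excitatory neuron-like over radial glia-like cells (0.742) lay between 0.665 and 0.785 over 18 alternatives, in excitatory neuron-like over intermediate progenitor-like cells (0.679) between 0.649 and 0.735 over 19, and in interneuron-like over ganglionic eminence progenitor-like cells (0.792) between 0.756 and 0.841 over 19. The share in intermediate progenitor-like over radial glia-like cells (1.09) lay between 0.965 and 1.11 over 18, and was below 1 only with globin-rich cells kept. Of 95 ratios of single members, 73 kept their direction under every alternative run, and Rps4l in intermediate progenitor-like over radial glia-like cells went from 0.514 to 1.08 with globin-rich cells kept. Where a value moved, the cause was not tested.

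Excitatory neuron-like over radial glia-like, the share ratio was 0.724 at resolution 0.5, 0.665 at resolution 2, 0.721 with 15 components, 0.718 with 1000 variable genes, 0.678 with ribosomal protein genes used in clustering, 0.700 without likely doublets, 0.726 over the other UMIs, 0.672 with equal weight per cell, 0.767 from 2000 UMIs up, 0.737 without like-named partners, 0.754 without the 5 most counted members, 0.703 and 0.785 in the runs, 0.709 with globin-rich cells kept, 0.748 at 3000 to 5000 UMIs, 0.753 without the shallow deep layer cluster and 0.713 without the deeply sequenced radial glia-like cluster. The count of 17 lower members became 36 at resolution 2, 32 with ribosomal protein genes in clustering, 28 without doublets, 36 with equal weight, 47 at a looser fold limit and 3 at 2-fold.

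Intermediate progenitor-like over radial glia-like, in the same order, the ratio was 1.07, 1.01, 1.06, 1.11, 1.04, 1.07, 1.10 and 1.03 up to equal weight, then 1.11 from 2000 UMIs up, 1.10 without the 5 most counted members, 1.08 and 1.11 in the runs, 0.965 with globin-rich cells kept, 1.07 at 3000 to 5000 UMIs, 1.05 without the deeply sequenced cluster and 1.06 with the cycling cluster added. The count of 1 lower member became 2 at resolution 0.5 and at a looser fold limit, and 0 without like-named partners, in run 2, at 2-fold and with globin-rich cells kept.

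Excitatory neuron-like over intermediate progenitor-like, the ratio was 0.675 at resolution 0.5, 0.662 at resolution 2, 0.649 with 1000 variable genes, 0.650 with ribosomal protein genes in clustering, 0.651 without doublets, 0.651 with clusters drawn on 50% of UMIs, 0.659 over the other UMIs, 0.650 with equal weight, 0.693 from 2000 UMIs up, 0.684 without the 5 most counted members, 0.653 and 0.704 in the runs, 0.735 with globin-rich cells kept, 0.699 at 3000 to 5000 UMIs, 0.690 without the shallow cluster and 0.701 with the cycling cluster added. The count of 32 became 67 at a looser fold limit, 1 at 2-fold and 18 with globin-rich cells kept.

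Interneuron-like over ganglionic eminence progenitor-like, the ratio was 0.831 at resolution 0.5, 0.834 with 15 components, 0.821 with 1000 variable genes, 0.756 with ribosomal protein genes in clustering, 0.774 without doublets, 0.780 over the other UMIs, 0.773 with equal weight, 0.802 from 2000 UMIs up, 0.80006 and 0.841 in the runs and 0.810 at 3000 to 5000 UMIs. The count of 12 became 4 at resolution 0.5, 3 with 15 components, 37 at a looser fold limit, 2 at 2-fold and 6 at 3000 to 5000 UMIs. The ratio between radial glia-like cells with and without G2 and mitosis messages (0.892) was 0.959 with ribosomal protein genes in clustering.

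Clusters drawn on 50% of UMIs gave no radial glia-like class to compare, and the G2 and mitosis split without thinning left fewer than 10 cells without such UMIs and was not run further. No paired analysis was possible because the pooled matrix has no columns for single samples. Intervals cover counting error only, and members with few UMIs, such as Rpl29 and Rps4l, are limited by depth.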
